A study of Mus musculus with 4 samples.

Results

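The genes described here are 9 complement components and receptors, namely C1qa, C1qb, C1qc, C4b, C3, Cfb, Cfp, C3ar1 and C5ar1. They were picked by gene name, and all 9 were found among the 54532 genes of the tables, 22046 of which are protein-coding. All 9 also passed the filter of 10 counts summed over the libraries that left 13811 protein-coding genes for testing. RNA was taken from primary cortical microglia of 1- to 3-day-old male CD1 mice, grown in mixed glial cultures with GM-CSF until trypsin lifted off the astrocyte layer, and then kept in serum-free medium with IL-34, TGFβ2, GM-CSF and cholesterol. Cultures received 1 µM epigallocatechin gallate (EGCG), a flavan-3-ol of green tea, or Vehicle for 24 h, the flavonoid stock having been made in DMSO. There were 2 EGCG and 2 Vehicle libraries, and each biological replicate number (1 or 2) has a library of both treatments. The labels do not say whether libraries with the same number came from the same culture or how many pups were pooled, so the p-values measure the spread between these libraries.

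Complement is a set of proteins that cut each other in a chain and so tag targets for uptake. C1q, built from the chains A, B and C, starts the classical pathway, which cuts C4 and C2 and then C3, while factor B and properdin build and stabilise the C3-cutting enzyme of the alternative pathway. The released fragments C3a and C5a act on the receptors C3AR1 and C5AR1, and cut C3 on a target is bound by the integrin made of CD11b and CD18. In the brain, microglia are the main source of C1q, and C1q and C3 are known for marking synapses and debris for engulfment by microglia.

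Library depth ranged from 33805071 to 54970300 counts, and EGCG replicate 2 was the deepest. Levels are given as TMM-normalized CPM (counts per 1000000 counts of the library), in which 3 counts, the smallest number taken as detectable, stand for 0.0544 to 0.0936 CPM. The microglial genes Csf1r (1195 to 2403 CPM) and Cx3cr1 (267 to 637 CPM) were abundant in each library, whereas P2ry12 (15.9 to 24.1 CPM) and Tmem119 (11.2 to 35.1 CPM) were lower. EGCG replicate 1 stood apart from the other libraries in its stromal RNA. The 8 stromal markers summed to 459 CPM with Vehicle and 5.84 CPM with EGCG in replicate 1, and to 161 and 178 CPM in replicate 2. Paired values given without a treatment are in the order Vehicle, EGCG throughout. Lum, a stromal gene, and Aqp4 and S100b, astrocyte genes, were at 0 in EGCG replicate 1. The 8 astrocyte markers together summed to between 14.3 and 22.6 CPM in all 4 libraries, with Aldh1l1 the largest part in each. In EGCG replicate 1, Aldh1l1 made up 11.95 of the 16.9 CPM. Only 4 of the 8 astrocyte markers had more than 3 counts in that library, against 7 in Vehicle replicate 1 and 6 and 7 in replicate 2. The sum therefore does not show that astrocyte RNA was kept in EGCG replicate 1. In bulk RNA, fewer cells of a type and less RNA per cell cannot be told apart.

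The first question was whether EGCG changed the RNA of the complement genes. None of the 9 passed an unadjusted p of 0.05 in the quasi-likelihood test of edgeR that compared EGCG with Vehicle alone, against 0.116% of all genes tested. None did with the replicate number as a term, where 3.21% of all genes did, or in the corresponding Wald tests of DESeq2, where 0.174% and 1.11% of all genes did. At an adjusted p under 0.1, again reached by none of the 9, the share of all genes in edgeR was 0.0% without and 0.00724% with the replicate term, and in DESeq2 it was 0.00724% and 0.0507%. For none of the 9 did both EGCG libraries lie above both Vehicle libraries or below them, while 6.39% of all genes tested were separated upwards and 5.51% downwards. The direction was mixed as well. C3 and C3ar1 were higher in EGCG in both replicates (29.9% of all genes were), Cfb and C5ar1 were lower in both (20.6% of all genes), and the 3 C1q chains, Cfp and C4b moved in opposite directions in the 2 replicates (49.2% of all genes).

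**Figure D1:**
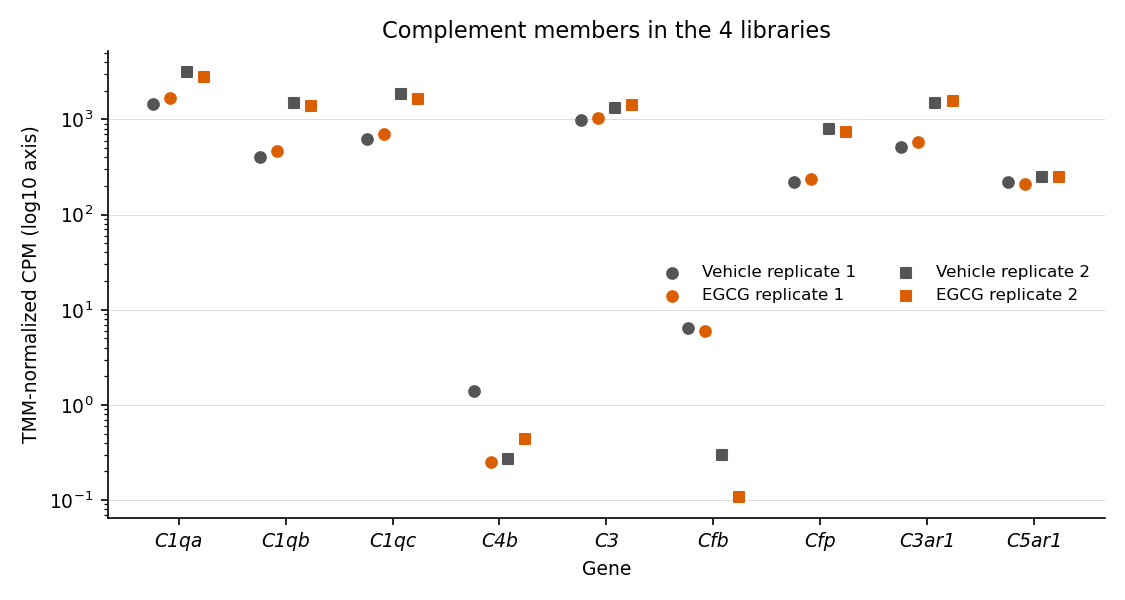
TMM-normalized CPM (log10 axis) of the 9 complement genes in the 4 libraries, with grey for Vehicle, orange for EGCG, circles for replicate 1 and squares for replicate 2. C1qa, C1qb, C1qc, Cfp and C3ar1 sit higher in both libraries of replicate 2, as do C3 and C5ar1 by less. Cfb sits higher in both libraries of replicate 1, and for no gene are both orange points on one side of both grey points.

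The genes of the 3 C1q chains lie side by side on the minus strand of chromosome 4 of GRCm38, in the order C1qb, C1qc and C1qa, within 18675 bases (chr4:136880129-136898803). Each has 3 exons. C1qa (ENSMUSG00000036887) was at 1443 CPM with Vehicle and 1688 CPM with EGCG in replicate 1, and at 3155 CPM with Vehicle and 2794 CPM with EGCG in replicate 2. EGCG was thus above Vehicle in replicate 1 and below it in replicate 2, and both libraries of replicate 2 were above both of replicate 1. C1qb (ENSMUSG00000036905) was at 399 and 461 CPM in the Vehicle and EGCG libraries of replicate 1, and at 1502 and 1394 CPM in those of replicate 2. C1qc (ENSMUSG00000036896) was at 631 and 705 CPM in replicate 1 and at 1846 and 1659 CPM in replicate 2. The 3 chains therefore moved in the same directions, though C1qa differed less between the replicates than C1qb and C1qc. On the log2 scale, the difference between EGCG and Vehicle within replicate 1 was 0.23 for C1qa, 0.21 for C1qb and 0.16 for C1qc. Within replicate 2 it was -0.18, -0.11 and -0.15. Whether the 2 replicates differed in their response was not tested, since each held 1 library per treatment. When replicate numbers were ignored, the mean of C1qa was 2299 ± 1210.0 CPM in Vehicle and 2241 ± 782 CPM in EGCG (SD, n = 2 libraries each), and its log2 fold change was -0.04 (standard error 0.51, adjusted p = 1.00 in edgeR's test). With the replicate number as a term it was 0.02, with a 95% interval of -0.27 to 0.32. The intervals were -0.18 to 0.28 for C1qb and -0.24 to 0.24 for C1qc.

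C4b (ENSMUSG00000073418, chr17:34728380-34743882, minus strand, 41 exons) encodes complement C4, which C1s cuts to form part of the classical C3 convertase. It was close to the limit of detection, with 46 counts with Vehicle and 8 with EGCG in replicate 1, and 10 with Vehicle and 24 with EGCG in replicate 2. In CPM these are 1.402, 0.250, 0.273 and 0.435, so Vehicle replicate 1 was the high library and the other 3 were near each other. The ratio of EGCG to Vehicle was 0.178 in replicate 1 (exact 95% interval 0.0726 to 0.381) and 1.59 in replicate 2 (0.735 to 3.74), intervals that cover counting error only and compare libraries, not treatments. Over all 4 libraries the log2 fold change was -1.27 (standard error 0.99, unadjusted p = 0.274 from edgeR's model over all genes). Without Vehicle replicate 1 it was 0.34, so the direction rested on that library. The same library held the most stromal RNA (459 CPM over the 8 markers), and the part of other cells in the C4b counts was not tested. C4b also has a near-identical neighbour, C4a, whose transcripts match it at 96.0% over 5378 bases. C4a, listed as a processed transcript, had 47 and 51 counts in replicate 1 and 47 and 65 counts in replicate 2, Vehicle before EGCG. It did not show the high value of C4b in Vehicle replicate 1. How reads shared by the 2 genes were counted is not given in the sources used here, so the count of either is uncertain.

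C3 (ENSMUSG00000024164, chr17:57203970-57228136, minus strand, 41 exons) encodes the protein on which all complement pathways meet. It was at 983 CPM with Vehicle and 1046 CPM with EGCG in replicate 1, and at 1306 and 1417 CPM in replicate 2. EGCG was slightly above Vehicle in both replicates, by 0.09 and 0.12 on the log2 scale, but EGCG replicate 1 was below Vehicle replicate 2, so the groups overlapped. The log2 fold change was 0.11 (standard error 0.27, unadjusted p = 0.721 in edgeR over all genes). With the replicate number as a term it was 0.10 (95% interval -0.06 to 0.27, unadjusted p = 0.167 in edgeR and 0.132 in DESeq2). In linear terms this interval runs from 0.959-fold to 1.20-fold.

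Of the alternative pathway genes, Cfp (ENSMUSG00000001128, chrX:20925454-20931555, minus strand) encodes properdin, which stabilises the convertase. It was at 219 and 237 CPM in the Vehicle and EGCG libraries of replicate 1 and at 794 and 740.05 CPM in those of replicate 2. Like the C1q chains, it was higher with EGCG in replicate 1 (by 0.12 on the log2 scale) and lower in replicate 2 (-0.10), with both libraries of replicate 2 far above those of replicate 1. Its log2 fold change with the replicate term was 0.01 (95% interval -0.18 to 0.19). Cfb (ENSMUSG00000090231, chr17:34856374-34862518, minus strand) encodes factor B, the enzyme of that convertase. In replicate 1 it had 210 counts with Vehicle and 191 with EGCG, and in replicate 2 it had 11 and 6, or 6.40, 5.96, 0.300 and 0.109 CPM. The libraries of replicate 1 were high and those of replicate 2 near the limit of detection, whatever the treatment. The ratio of EGCG to Vehicle was 0.931 in replicate 1 (exact 95% interval for counting error 0.762 to 1.14) and 0.362 in replicate 2 (0.110 to 1.07). The low value in replicate 2 thus rests on 17 counts in all and its interval includes 1. Without the replicate term its log2 fold change was -0.15 with a standard error of 2.13, and with it -0.47 with a standard error of 0.35 (unadjusted p = 0.267 in edgeR). Leaving out 1 library moved the first of these between -4.91 (without EGCG replicate 1) and 3.32 (without Vehicle replicate 1). A predicted gene, Gm20547, overlaps Cfb on the same strand and matches it at 100% over 2248 bases of a Cfb transcript of 2751 bases. It also overlaps C2, the neighbour of Cfb, and is listed at 0 in all 4 libraries. How reads in these overlaps were counted is not given in the sources used here, so the counts of Cfb and C2 are uncertain.

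The receptor genes are made of 2 exons each. C3ar1 (ENSMUSG00000040552, chr6:122847138-122856161, minus strand) encodes the C3a receptor. In replicate 1 it was at 519.7 CPM with Vehicle and 586 CPM with EGCG, and in replicate 2 at 1492 and 1559.95 CPM. EGCG lay above Vehicle each time, by 0.17 and 0.06 on the log2 scale, and higher still in replicate 2 than in replicate 1, so the groups overlapped. Its log2 fold change with the replicate term was 0.12 (95% interval -0.05 to 0.29), with the smallest unadjusted p of the 9 genes in that fit (0.133 in edgeR, 0.0957 in DESeq2). C5ar1 (ENSMUSG00000049130, chr7:16246743-16259540, minus strand) encodes the C5a receptor and was the steadiest of the 9. It was at 222 and 208 CPM in replicate 1 and at 249 and 248 CPM in replicate 2, in Vehicle and EGCG respectively. Its log2 differences were -0.10 and -0.004, and its fold change with the replicate term lay between 0.883 and 1.06 (95% interval).

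**Figure D2:**
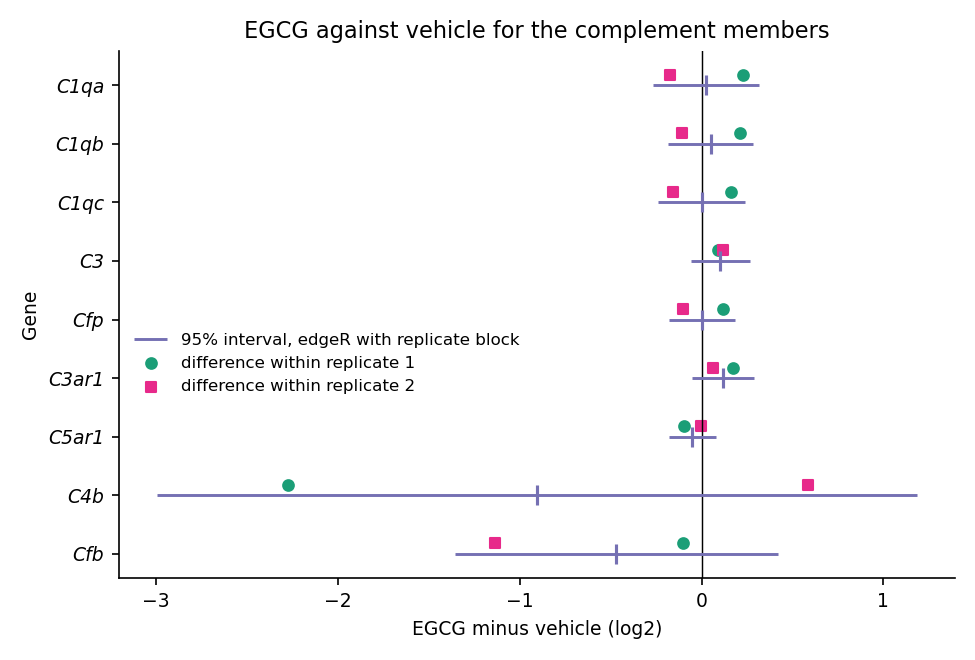
Log2 difference between EGCG and Vehicle for each complement gene, within replicate 1 (green circles) and within replicate 2 (pink squares), with the estimate of the edgeR fit with the replicate term (purple tick) and its 95% interval (purple line). All 9 intervals include 0, and those of C4b and Cfb, the genes with the fewest counts, are the widest.

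The width of the intervals depended on the replicate term. The median standard error over the 9 genes was 0.744 on the log2 scale without the replicate number and 0.0921 with it, while over all genes tested it was 0.280 and 0.0896. Over the 9 genes the log2 fold change had a median of -0.05 without and 0.01 with the replicate term, beside 0.01 and 0.01 over all genes tested. For the 7 abundant members the edgeR intervals with the replicate term did not go below 0.830-fold or above 1.25-fold. For C4b and Cfb they ran from 0.125-fold to 2.27-fold and from 0.390-fold to 1.34-fold. These widths depended on the model. With the replicate term, DESeq2 gave standard errors of 0.217 for C1qa, 0.205 for C1qb and 0.209 for C1qc. Those of edgeR were 0.116, 0.0921 and 0.0942. For C3 (0.064) and C3ar1 (0.067) the standard errors were the same in both.

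Levels of different genes were compared per length, as CPM per kilobase of the gene length in the files (RPKM). C1qa was the highest in every library, at 1388 to 3033 RPKM, and ranked between 9 and 20 among the 13811 genes. C1qb (366 to 1380 RPKM) and C1qc (327 to 956 RPKM) came next in every library, but their ranges overlap. Cfp (126 to 457 RPKM), C3ar1 (121 to 362 RPKM) and C3 (191 to 276 RPKM) followed with overlapping ranges, and their order differed between replicates, with C3 first of these in replicate 1 and last in replicate 2. C5ar1 stood alone below them (80.9 to 96.9 RPKM). Cfb (0.0385 to 2.27 RPKM) and C4b (0.0438 to 0.246 RPKM) were lowest, with ranks from 8394 to 12726 and from 11482 to 12703, and did not differ beyond their spread. The chains of C1q, which join in equal numbers in the protein, were unequal in RNA. C1qa was 3.79 and 3.83 times as high as C1qb per length in the Vehicle and EGCG libraries of replicate 1, and 2.20 and 2.10 times in those of replicate 2. The ratio of C1qc to C1qb was 0.891, 0.861, 0.693 and 0.670 in the same order. Both ratios were thus close within a replicate number and lower in replicate 2.

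The second comparison was between the biological replicates, in which the median difference of the complement genes was larger than between treatments. It is given as a description, and no test of it was run. C1qb, C1qc, Cfp and C3ar1 were more than 1 higher on the log2 scale in replicate 2 in both treatments, as were 4.31% of all genes tested. Cfb was more than 1 lower in both, as were 7.73% of all genes. In Vehicle the folds were 3.77 for C1qb, 3.63 for Cfp, 2.93 for C1qc and 2.87 for C3ar1, and in EGCG they were 3.03, 3.12, 2.35 and 2.66. C1qa was 2.19-fold higher in replicate 2 in Vehicle and 1.66-fold in EGCG. C3 differed by 1.33-fold and 1.36-fold in the same direction and C5ar1 by 1.12-fold and 1.19-fold. Factor B went the other way. Cfb was 21.3 times as high in replicate 1 as in replicate 2 in Vehicle (exact 95% interval for counting error 11.7 to 43.4) and 54.8 times in EGCG (24.7 to 151). Its neighbour C2, which is separated from Cfb by 85 bases and encodes the corresponding enzyme of the classical pathway, was at 7.83 and 8.83 CPM in replicate 1 and at 8.40 and 7.18 CPM in replicate 2. The neighbours therefore did not share the difference. The median size of the replicate difference over the 9 members was 1.55 on the log2 scale in Vehicle and 1.24 in EGCG, beside 0.38 and 0.35 over all genes tested. The median size of the EGCG difference was 0.16 in replicate 1 and 0.12 in replicate 2, beside 0.12 and 0.10.

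**Figure D3:**
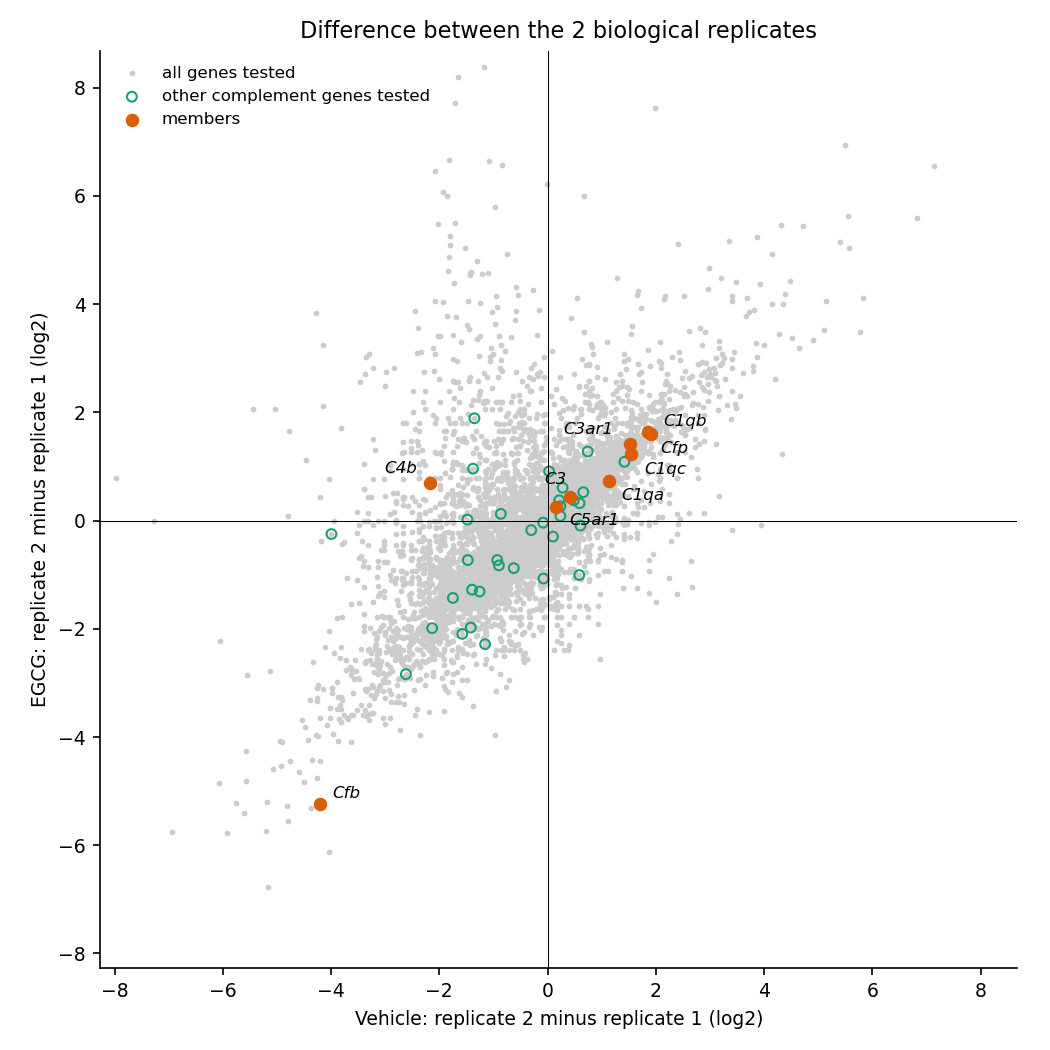
Log2 difference between replicate 2 and replicate 1 in Vehicle (x axis) and in EGCG (y axis) for all 13811 genes tested (grey), the other complement genes tested (green circles) and the 9 members (orange, named). C1qb, C1qc, Cfp and C3ar1 lie together at the upper right, Cfb at the lower left, and C4b is the one member whose difference has opposite signs in the 2 treatments.

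Other RNAs also separated the replicates. The 9 microglial markers, of which C1qa is one, summed to 5739 and 6346 CPM in replicate 1 and to 8182 and 8029.9 CPM in replicate 2. They did not move one way, since Csf1r was at 1195 and 1264 CPM in replicate 1 and at 2373 and 2403 CPM in replicate 2, while Tmem119 was at 35.1 and 26.7 CPM and at 11.2 and 11.8 CPM. The 4 neuronal markers summed to 17.7 and 16.7 CPM in replicate 1 and to 0.818 and 0.888 CPM in replicate 2, in replicate 1 nearly all of it Snap25, while Syt1 was at 0 in both Vehicle libraries. The 4 endothelial markers summed to 2.56 and 0.905 CPM in replicate 1 and to 16.8 and 13.7 CPM in replicate 2. In replicate 2 nearly all of it was Pecam1, and Cldn5 was at 0 in all libraries. Cdh5 went the other way, at 2.41 and 0.811 CPM in replicate 1 and at 0.928 and 0.236 CPM in replicate 2. The 7 oligodendrocyte markers were steady, between 78.2 and 82.0 CPM. The part of these cells in the complement levels was not tested, and what else differed between the replicate numbers is not given in the labels.

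The sequence before the RefSeq start of these genes is shown for C1qb, C1qc, C3ar1 and Cfp, because these 4 members were more than 1 higher on the log2 scale in replicate 2. Each line gives the 250 bases upstream of the RefSeq start, 5′ to 3′ on the gene's own strand, from RefSeq on GRCm38.p6, and all 4 genes are on the minus strand. Capitals mark motif matches on either strand. The motifs were GAGGAA, the core bound by the myeloid factor PU.1, then TGANTCA for the factor AP-1, then TATAAA for the box of that name, and the kappaB motif of NF-κB.
C1qb (chr4:136886201-136886450): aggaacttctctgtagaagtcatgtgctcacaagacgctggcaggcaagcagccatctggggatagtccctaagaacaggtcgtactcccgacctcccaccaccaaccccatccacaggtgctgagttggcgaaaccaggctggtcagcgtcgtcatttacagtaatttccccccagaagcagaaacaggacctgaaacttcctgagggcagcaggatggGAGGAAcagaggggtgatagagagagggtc
C1qc (chr4:136892915-136893164): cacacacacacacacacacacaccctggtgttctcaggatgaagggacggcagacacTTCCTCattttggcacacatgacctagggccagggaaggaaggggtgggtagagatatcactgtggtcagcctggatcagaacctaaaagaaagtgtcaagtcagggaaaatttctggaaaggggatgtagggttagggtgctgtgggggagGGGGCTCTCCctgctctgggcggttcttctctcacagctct
C3ar1 (chr6:122856158-122856407): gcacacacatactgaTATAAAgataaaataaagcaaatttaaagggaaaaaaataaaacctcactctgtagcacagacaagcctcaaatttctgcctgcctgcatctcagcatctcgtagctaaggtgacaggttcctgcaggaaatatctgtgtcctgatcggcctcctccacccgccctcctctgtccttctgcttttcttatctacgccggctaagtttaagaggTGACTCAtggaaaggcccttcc
Cfp (chrX:20931556-20931805): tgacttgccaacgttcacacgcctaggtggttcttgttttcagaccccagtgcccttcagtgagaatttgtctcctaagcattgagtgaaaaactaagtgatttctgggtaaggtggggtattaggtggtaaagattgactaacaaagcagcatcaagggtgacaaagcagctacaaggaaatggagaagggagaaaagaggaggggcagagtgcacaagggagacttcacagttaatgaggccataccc
The PU.1 core was found in C1qb, 30 to 25 bases before the start, and in C1qc on the opposite strand, 193 to 188 bases before it. It occurs in 23.3% of the 32851 promoters of this length. C1qc also had a kappaB match, 41 to 32 bases before the start (3.90% of promoters). C3ar1 had an AP-1 match, a pattern that reads the same on both strands, 22 to 16 bases before the start (6.75% of promoters). It also had a TATAAA, which lay 235 to 230 bases before the start (12.4% of promoters). Cfp held none of the motifs searched. RefSeq entries were matched for 6 of the 9 members, C3 and C5ar1 being the other two, and not for C1qa, C4b and Cfb. C3 had a match to TTGCNNAA, a C/EBP motif (9.56% of promoters), 45 to 38 bases before the start. No member promoter held the interferon motif ISRE (2.98% of promoters) or TTCNNNGAA, the STAT motif GAS (7.02%). No motif was common to the 4 genes shown, and no matches overlapped. The RefSeq start of C1qc lies inside the gene as the files place it, so part of its window, with the kappaB match, is within that gene.

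A wider list of 55 complement genes placed the members in the pathway. Of these, 33 were tested, 12 had no count in any library, 9 had 1 to 9 counts in all, and C4a was left out by its gene class. None of the 33 passed an unadjusted p of 0.05 in edgeR, with or without the replicate term, or in DESeq2. The smallest in edgeR was 0.163 without the replicate term and 0.113 with it, and in DESeq2 0.148 (Cfi) and 0.0969 (Serping1). The shares of all genes that passed were 0.116% and 3.21% in edgeR and 0.174% and 1.11% in DESeq2. Their log2 fold changes had a median of 0.04 without and 0.03 with the replicate term. On the log2 scale, 9 were higher in EGCG in both replicates (29.9% of all genes tested), 7 were lower in both (20.6%) and 17 moved in opposite directions (49.2%). In 2 of the 33 both EGCG libraries lay above both Vehicle libraries (C1rl and Csmd2) and in 2 below them (Serping1 and Susd4). The shares of all genes were 6.39% and 5.51%, and these 4 were named after their values were seen. Csmd2 and Susd4 were near the limit of detection. Csmd2 had 3 counts with Vehicle and 4 with EGCG in replicate 1, and 0 and 7 in replicate 2. Susd4 had 3 and 2, then 6 and 5.

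The pathway was measured unevenly along its length. All 5 genes of the C1 proteases were tested, led by C1ra, which encodes the protease C1r, at 18.2 and 16.6 CPM in replicate 1 and 6.90 and 6.83 CPM in replicate 2. C1rb, a mouse duplicate of it, was at 2.44 and 2.78 CPM and at 0.355 and 0.344 CPM. Of the 8 lectin pathway genes only Masp1 (6.40 to 10.1 CPM) and Fcna (3.72 to 16.0 CPM) had a mean of at least 1 CPM, and Mbl1, Mbl2, Fcnb and Colec11 had no count. Fcna, which encodes ficolin A, was at 13.3 and 16.0 CPM in replicate 1 and at 4.45 and 3.72 CPM in replicate 2. Of the 6 genes of the terminal pathway only C8g passed the filter, at under 1 CPM in each library, and C6, C7 and C8a had no count. Cfd, which encodes factor D, the protease that cuts factor B, had no count either, and Hc, which encodes C5, had 1 count in all. A count of 0 allows up to 0.0544 to 0.0936 CPM in these libraries.

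Between the replicates, 8 of the 33 genes were more than 1 lower on the log2 scale in replicate 2 in both treatments. The share of all genes tested was 7.73%. The 8 were C1ra, C1rb, C1s1, C1s2, Fcna, Csmd1, Itgam and Cd93. Some rest on few counts in replicate 2, where C1s1 had 9 with Vehicle and 7 with EGCG, C1s2 6 and 11, and Csmd1 6 and 2. Among the regulators, Cr1l, which encodes the membrane regulator Crry, ranged from 80.7 to 98.7 CPM, and its fold change with the replicate term was 0.04 on the log2 scale (95% interval -0.10 to 0.18). The membrane inhibitor gene Cd59a was at 6.52 to 12.5 CPM, Sez6l2 at 2.31 to 3.01 CPM, Clu, which encodes clusterin, at 0.955 to 2.74 CPM and Cd46 at 0.792 to 1.32 CPM.

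Among the receptors, Itgb2 (959 to 1867 CPM), Itgax (569 to 702 CPM) and Itgam (168 to 417 CPM) encode the chains CD18, CD11c and CD11b of the integrins that bind cut C3. Itgam was 2.39 times as high in replicate 1 as in replicate 2 in Vehicle and 2.48 times in EGCG, the opposite direction to C3ar1. Among these 3, the largest difference between treatments within a replicate was 0.13 on the log2 scale, for Itgb2 in replicate 2. Cd93, named in early work as a C1q receptor, was at 11.8 and 16.3 CPM in replicate 1 and at 4.39 and 4.10 CPM in replicate 2. C1qbp, whose protein binds C1q but lies mostly in mitochondria, was at 47.3 to 50.3 CPM, and C5ar2, the second C5a receptor, was at 2.27 to 4.36 CPM.

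**Figure D4:**
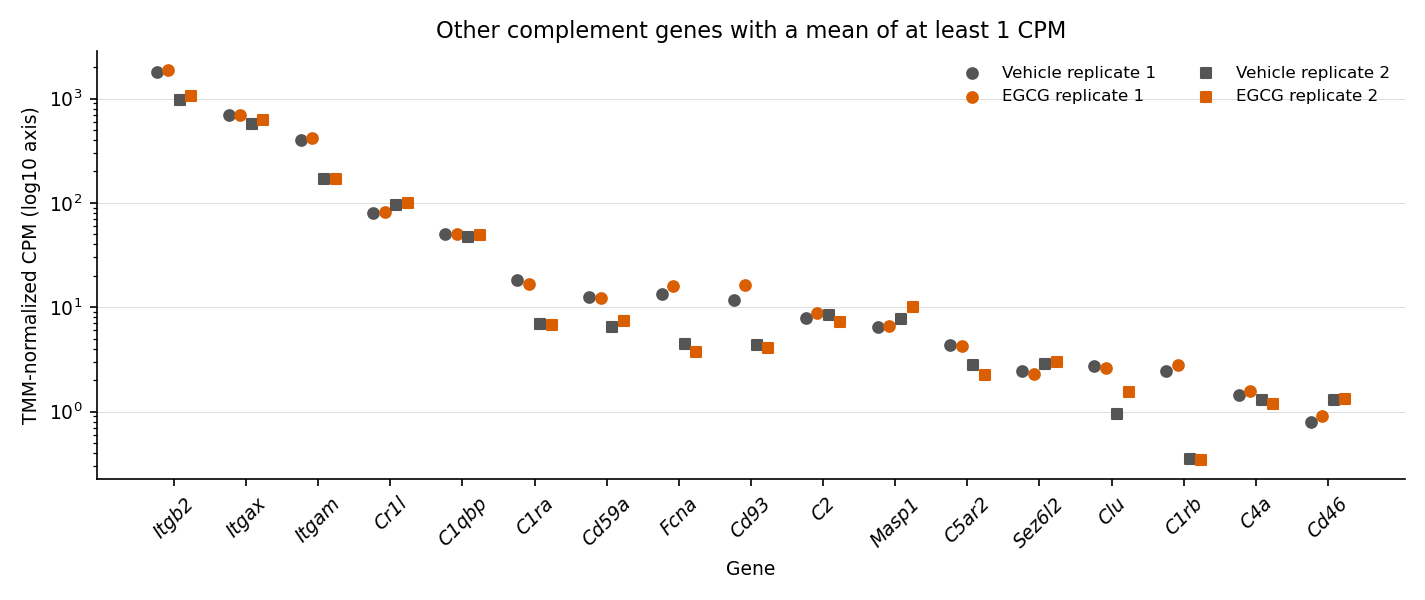
TMM-normalized CPM (log10 axis) in the 4 libraries of other complement genes with a mean of at least 1 CPM, ordered by their mean, with grey for Vehicle, orange for EGCG, circles for replicate 1 and squares for replicate 2. Vehicle and EGCG of the same replicate number lie close together for most genes, while Itgam, C1ra, Fcna, Cd93 and C1rb are lower in replicate 2.

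Serping1 and Cfi, named after their values were seen, shared with C4b the high value in Vehicle replicate 1. Serping1, which encodes the C1 inhibitor, had 30 counts with Vehicle and 1 with EGCG in replicate 1, and 12 and 14 in replicate 2. The ratio of EGCG to Vehicle was 0.0341 in replicate 1 (exact 95% interval 0.000837 to 0.205) and 0.775 in replicate 2 (0.333 to 1.83). These intervals cover counting error only and compare libraries, not treatments. Cfi, which encodes factor I, had 25, 1, 0 and 1 counts in the same order. When Vehicle replicate 2 was left out, the log2 fold change of Cfi was -4.86, but the high Vehicle replicate 1 was then the only Vehicle library. Of the stromal markers, Col1a1, Col1a2, Col3a1, Dcn, Lum, Pdgfrb and Eln were lowest in EGCG replicate 1. Eln, with 1088, 1, 3 and 5 counts, was near the limit of detection in both libraries of replicate 2 as well. Pdgfra (3.72, 4.4004, 1.17 and 1.72 CPM) was highest in EGCG replicate 1. Of the astrocyte markers, Gfap, Aqp4, Slc1a3, Gja1 and S100b were lowest in that library, but S100b was below the limit of detection in every library. Aldh1l1 (10.3, 11.95, 9.003 and 9.17 CPM) was highest in EGCG replicate 1, while Slc1a2 and Aldoc were neither. Col1a1 had 3962, 4, 1344 and 2040 counts, Dcn 788, 2, 493 and 589, and Gja1 160, 1, 66 and 107. Of the 7 abundant complement members, C5ar1 was lower in EGCG replicate 1 than in Vehicle replicate 1 and the others were higher. The median of all genes tested was also higher in EGCG in that pair, by 0.03 on the log2 scale. The part of stromal cells in the Serping1, Cfi and C4b counts was not tested.

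**Figure D5:**
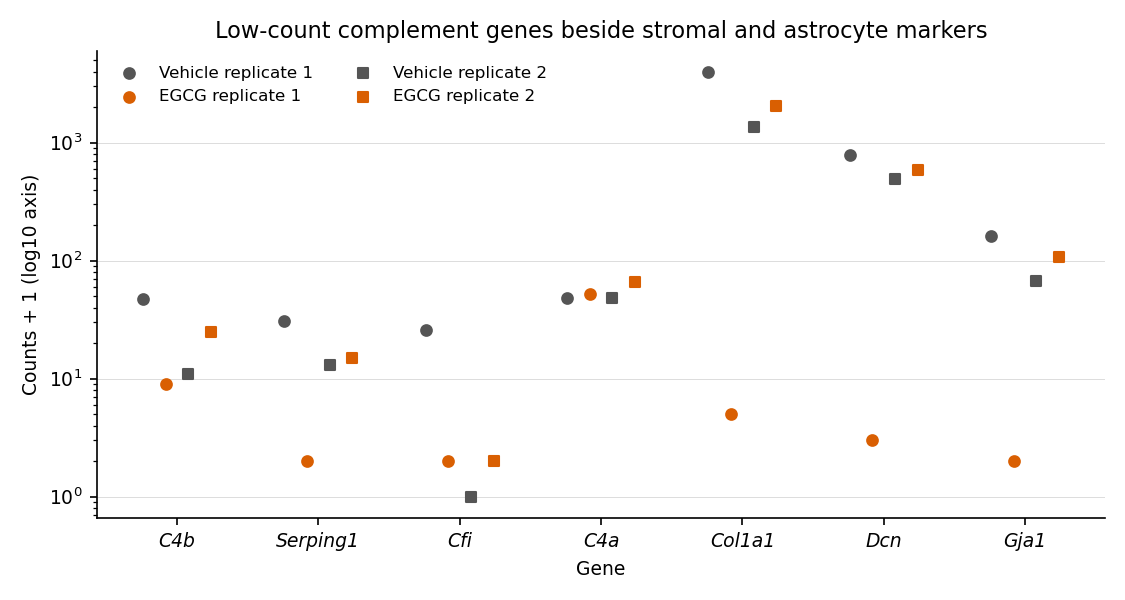
Raw counts plus 1 (log10 axis) of C4b, Serping1, Cfi and C4a beside the stromal markers Col1a1 and Dcn and the astrocyte marker Gja1, with grey for Vehicle, orange for EGCG, circles for replicate 1 and squares for replicate 2. EGCG replicate 1 is the lowest library for C4b, Serping1, Col1a1, Dcn and Gja1, and C4a is between 47 and 65 counts in all libraries.

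Likeness of pattern was measured as the root mean square difference between centred log2 CPM over the 4 libraries, for 8356 genes with a mean of at least 10 CPM. With 4 points, many genes come close by the number compared, and all share libraries and depth. Among the members, C1qb and Cfp were the closest pair (0.0330), although they lie on different chromosomes, followed by C1qc and C3ar1 (0.0858). C1qa was 0.415 from C1qb. C3 was closest to C5ar1 (0.133). The genes nearest to the mean of the 3 C1q chains were Ttc28 (0.00653), Fnbp1l (0.0322), Dgkh (0.0398), Il10ra (0.0466) and Marcks (0.0487). Nsmce1 (0.00376), St7 (0.0108), Nprl2 (0.0109), Arhgap10 (0.0137) and Zhx1 (0.0145) were nearest to C3. Il10ra, which encodes a chain of the interleukin-10 receptor, was at 117 and 128 CPM in replicate 1 and at 311 and 302 CPM in replicate 2.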

How the data were processed

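Per the labels and the paper's methods, poly-A RNA libraries were strand-specific, and the authors filtered the reads for adapters and low quality and aligned them with HISAT2 to GRCm38.p6. The counting program is not given in the sources used here. The authors deposited raw counts per gene, 1 table per biological replicate, and the submitters' sample sheet tied each table to its replicate number. Ensembl identifiers joined the tables, and 697 and 329 loci with names given table by table were dropped. The gene length column, in bases, is as the authors deposited it.

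The main test was the quasi-likelihood test of edgeR 4.0.16 (R 4.3.3, TMM factors, treatment only) over 13811 protein-coding genes with at least 10 summed counts, with Benjamini-Hochberg adjustment. Thresholds were an unadjusted p under 0.05 and an adjusted p under 0.1. Both libraries of a replicate number were deposited in 1 table, so a second fit added the number as a block. The difference between replicates in Vehicle correlated with that in EGCG (Pearson r = 0.64, taken across genes that are not independent). DESeq2 1.42.0 was an alternative. Fits were tested on simulated counts. Intervals use the standard error of the fitted model. A prior count of 2 entered the log2 CPM of single libraries. BLAST 2.17.0 searched for near-identical copies (at least 90% identity over 200 bases). Positions were the same in GENCODE release M21 for 98.3% of identifiers. With 2 libraries per group all p-values rest on the models, and no library was a copy of another. The members and lists were chosen with earlier results of these data known. Genes named are the members, other complement genes at a mean of 1 CPM or more, the 5 nearest in pattern, and markers that touch a result, with any others said to be chosen later. A few results are not reported here.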

Additional observations from a re-analysis of the deposited data

How the results depend on the processing

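No complement member had an unadjusted p under 0.05 under any alternative run, and an adjusted p under 0.1 was not reached by any. Of 70 values of the members' log2 fold changes under the alternatives that keep all libraries, 64 kept their direction and 6 did not. The 6 were all in fits with the replicate block, where C1qa was 0.025 in edgeR and 0.018 in DESeq2, C1qb 0.050 and 0.044, C1qc 0.0019 in edgeR and Cfp 0.0053 in edgeR, all against small negative values. The replicate block changed no call of a complement gene.

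Over all genes tested, 16 had an unadjusted p under 0.05, against 444 with the replicate block in edgeR, 153 with the replicate block in DESeq2, 3 with at least 10 counts in every library and 35 with all biotypes. The count at an adjusted p under 0.1 was 0, against 1 with the block in edgeR, 1 in DESeq2 without it and 7 in DESeq2 with it. With each library left out in turn, the genes with a p under 0.05 ranged from 8 (without EGCG replicate 1) to 134 (without EGCG replicate 2), with 59 without Vehicle replicate 2. The other complement genes ranged from 0 to 1 (Cfi, without Vehicle replicate 2), the members from 0 to 0. The lone library of a group is then assumed to vary like the others.

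Leaving out 1 library turned the direction of each member. The log2 fold changes ranged from -0.49 to 0.62 for C1qa, from -1.07 to 1.21 for C1qb, from -0.84 to 0.90 for C1qc, from -2.02 to 0.34 for C4b, from -0.16 to 0.31 for C3, from -4.91 to 3.32 for Cfb, from -1.12 to 1.15 for Cfp, from -0.81 to 1.04 for C3ar1 and from -0.21 to 0.075 for C5ar1. An unbalanced fit mixes the replicate difference into the treatment difference. Total counts in place of TMM moved the median of all genes between the EGCG libraries by 0.101 on the log2 scale. It left 4 members higher and 1 lower in replicate 2, as did upper-quartile factors. C4b and Cfb had 6 to 24 counts in some libraries. Cfb could not be tested with 10 counts in every library, nor could C4b.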
